A study of Mus musculus with 8 samples.

Results

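The replication-dependent histone genes were described here in the newborn mouse cortex after ischemia before birth. Members were taken by name: every non-control probe on the array whose gene name begins with Hist1h, Hist2h, Hist3h or Hist4h. This gave 55 probes for 49 genes, out of 55681 probes for 34731 gene or transcript names on the array. Of these genes, 36 lie in cluster 1 on chromosome 13, 9 in cluster 2 on chromosome 3, 3 in cluster 3 on chromosome 11 and 1 on chromosome 6. Both groups were cortex of male C57BL/6NCr pups on postnatal day 1.5, with 4 arrays each and 1 RNA sample per array. In the ischemia group, blood flow to the uterus had been stopped for 14 min at E16.5, late in gestation, by clipping the uterine arteries of the anesthetized mother. The control group carries no such exposure in its labels, and whether its mothers had anesthesia or surgery is not stated. Litters are not named either, so the p-values below measure the spread between these samples. The array positions in the files put all 8 arrays on 1 slide, with the controls in row 1 and the ischemia arrays in row 2, so row and group cannot be told apart.

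Histones are the proteins around which DNA is wound. H2A, H2B, H3 and H4 form the core of the nucleosome, and the linker histone H1 binds where DNA enters and leaves it. A cell that copies its genome must build new nucleosomes, so most histone is made in S phase from many near-identical, intronless gene copies that sit in clusters. Their mRNAs end in a stem-loop in place of a poly(A) tail. The stem-loop binding protein Slbp holds that structure, the U7 small nuclear RNP with Lsm10 and Lsm11 directs the cut behind it, and Npat switches the clusters on. In the cortex around birth the dividing cells are progenitors, glia, vessel cells and microglia, while neurons have left the cell cycle. The labelling kit named in the labels starts from an oligo(dT) primer, which anneals to poly(A). How much of a member's signal came from tailed transcripts was not tested.

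Near-identical copies limit what a probe can name. The H2A probes show this best, and 4 that start at the same place in their transcripts are given here 5′ to 3′, with the 10 positions at which they differ in capitals.
Hist1h2af: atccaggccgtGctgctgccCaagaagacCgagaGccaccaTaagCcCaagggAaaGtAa
Hist1h2ak: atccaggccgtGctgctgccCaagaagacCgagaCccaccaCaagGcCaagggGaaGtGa
Hist1h2an: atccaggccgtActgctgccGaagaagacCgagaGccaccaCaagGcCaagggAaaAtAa
Hist2h2aa2: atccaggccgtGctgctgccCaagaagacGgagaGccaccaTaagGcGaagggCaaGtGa
In mm9 the files place them at chr13:23626113-23626172, chr13:21845304-21845363, chr13:21878695-21878754 and chr3:96049837-96049896. Each of the 4 shared 55 of 60 bases with the probe of another member. Across the whole set, 20 probes were shared in this sense, meaning at least 40 of 60 identical bases with another member's probe or several RefSeq genes in the probe's own accession list. Values of such probes are not separate measurements of separate genes, and a probe of this kind may read several copies.

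The stem-loop itself was on the array. It lay inside 6 member probes, found by the pattern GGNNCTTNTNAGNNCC on the probe's strand, and 1 of the other probes on the array, named Snrpa, held the same pattern. The stretches around it are printed with the 16 bases of the stem-loop in capitals.
Hist1h3a: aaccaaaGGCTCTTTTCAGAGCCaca
Hist1h3g: ctttaaaGGCTCTTCTTAGAGCCaccca
Hist1h3i: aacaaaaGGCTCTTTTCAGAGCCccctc
Hist1h4m: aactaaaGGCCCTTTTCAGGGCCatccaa
Hist2h2aa1: taaaaaGGCTCTTTTCAGAGCCacccact
Hist2h2bb: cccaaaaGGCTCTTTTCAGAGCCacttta
These probes read across the stem-loop. A transcript that runs on past it would hold the same bases, so they cannot tell a mature end from a longer transcript. A further 33 probes lie inside the RefSeq transcript, by their start and its length, and do not hold the whole pattern. The position of the stem-loop was not located for them, so those near the annotated end may hold part of it. The other 16 lie past or across the annotated end of the transcript, or in a locus that RefSeq annotates as long or spliced. The files give the probe's start in its target, and the gene lengths came from RefSeq on GRCm38.p6.

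Promoters of the members shared letters as well. Of 43 member genes with a promoter in the RefSeq table (GRCm38.p6, 250 bases before to 50 after the start), 37 (86%) held CCAAT on either strand, against 41.1% of all 27025 promoters of that table. CCAAT is the box read by the NF-Y complex. It was in 6 of 6 H1, 14 of 14 H2A, 9 of 9 H2B and 6 of 6 H3 promoters and in 2 of 8 H4 promoters. The octamer ATTTGCAT, read by Oct-1, was in 7 of 14 H2A and 6 of 9 H2B promoters and in 0 of the H1, H3 and H4 promoters, against 1.97% of all promoters. TATAAA was in 26 member promoters (60.5%), against 15.7%. An H2A and an H2B promoter are shown, because both hold the octamer beside CCAAT. The 150 bases before the start are given on the gene's strand, with these 3 motifs in capitals on either strand. They lie at chr13:23750938-23751087 and chr13:21721894-21722043 of GRCm38.p6.
Hist1h2ab: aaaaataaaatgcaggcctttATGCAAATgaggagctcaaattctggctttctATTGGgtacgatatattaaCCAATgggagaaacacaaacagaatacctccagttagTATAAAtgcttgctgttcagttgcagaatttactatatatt
Hist1h2bm: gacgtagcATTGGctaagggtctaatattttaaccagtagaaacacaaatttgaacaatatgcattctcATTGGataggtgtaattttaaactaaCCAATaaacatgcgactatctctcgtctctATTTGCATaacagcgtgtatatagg
A match is a match of letters, and no binding was measured.

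Most members could be measured. A spot counts as detected when the scanner software marks it well above background, and 44 of the 55 probes were detected on all 8 arrays and 7 on none. A probe was tested when detected on at least 4 arrays, which kept 45 probes and left 40 of the 49 genes. Signals are given as log2 of the processed signal relative to the array's 75th percentile, so 0 is a signal equal to that percentile. The 75th percentiles ran from 305.6 to 393.3, 47.6% to 51.7% of spots were detected per array, and 0 spots were saturated. Of the 9 genes not tested, Hist1h1d, Hist1h2ac, Hist1h2ae, Hist1h2bg, Hist1h2bp and Hist1h2bq were detected on 0 of 8 arrays, and each of these 6 probes lies past or across the annotated end or in a long or spliced locus. Hist1h2bb was detected on 2 control arrays and 0 ischemia arrays, Hist1h3g on 0 and 2, and Hist3h2bb-ps on 1 and 0.

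After ischemia, 35 of the 40 tested histone genes had a lower mean signal than in controls. The median difference, ischemia minus control, was -0.29 on the log2 scale, or 81.8% of the control signal. Over all 19751 genes tested, 57% lay lower and the median was -0.02. No histone gene passed an adjusted p of 0.05 in limma, where 0.00506% of all genes (1 gene) passed. The smallest adjusted p among members in limma was 0.223. At an unadjusted p under 0.05 in limma, 18 members lay lower and 0 higher, against 7.65% and 3.25% of all genes. In 7 members all 4 ischemia arrays lay below all 4 controls, and in 0 members above them, against 4.28% and 2.27% of all genes. Single differences ran from -0.55 to 0.31. A smaller share of dividing cells and less histone mRNA in each such cell cannot be told apart in whole cortex.

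**Figure D1:**
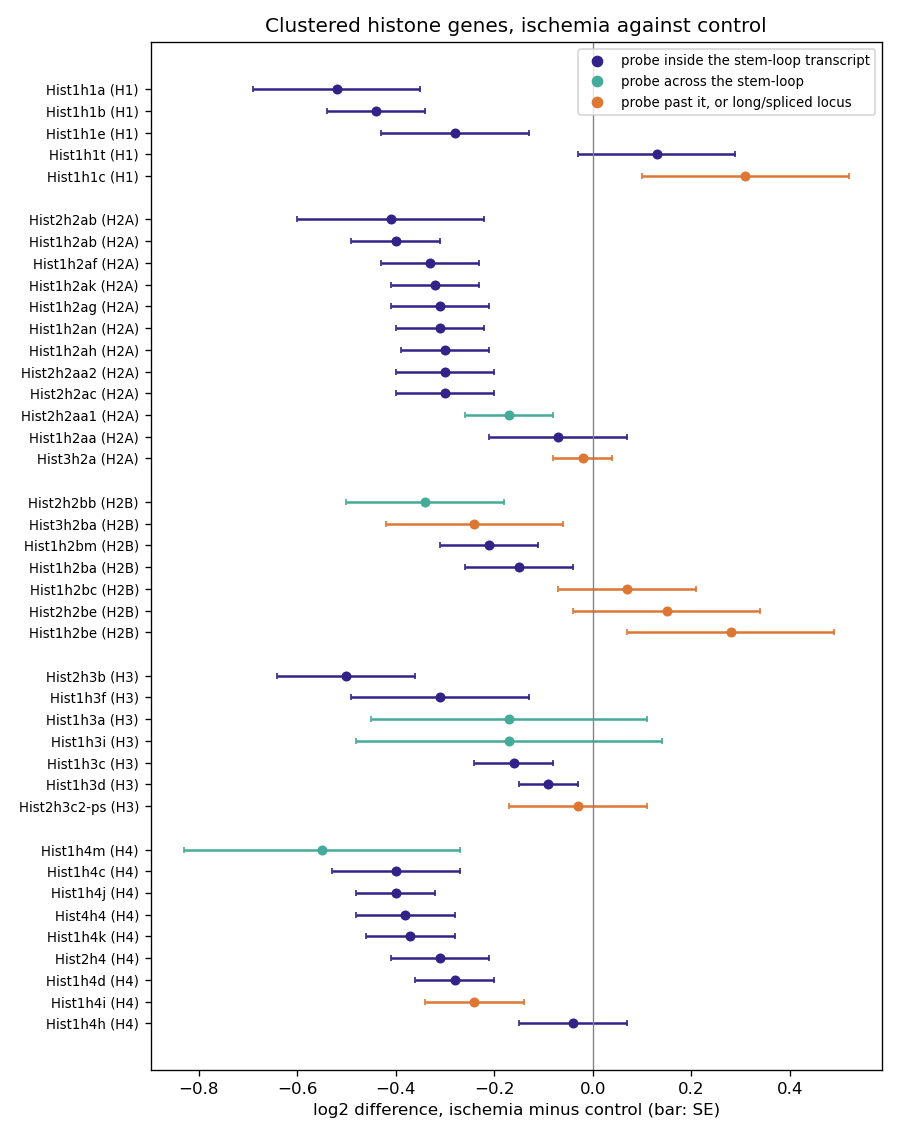
Log2 difference, ischemia minus control, for the 40 tested histone genes grouped by class, with the standard error of limma as the bar and the place of the probe as the colour. Dots for H2A, H3 and H4 all lie left of 0. Of the 5 dots right of 0, Hist1h1t has a probe inside the transcript, and Hist1h1c, Hist1h2be, Hist2h2be and Hist1h2bc have probes past the annotated end or in a long or spliced locus.

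Linker histones were mixed. Of the 5 tested H1 genes 3 lay lower, with a median of -0.28, and that median was -0.17 without ischemia replicate 2 and -0.43 without ischemia replicate 1. Hist1h1b (now H1f5; chr13:21871923-21871982, inside the transcript) read 2.42, 2.35, 2.11 and 2.18 in controls 1 to 4 and 2.03, 1.85, 1.66 and 1.77 in ischemia 1 to 4. All ischemia values lay below all controls, and the difference was -0.44 (SE 0.10, adjusted p = 0.243 in limma), or 73.7% of control. Its probe is not shared with another member. Hist1h1a (H1f1), a linker histone of dividing cells, read -0.14, -0.05, -0.24 and -0.36 in controls and -0.41, -0.71, -1.21 and -0.54 after ischemia. The groups again did not overlap, but the ischemia values were spread widely (SD 0.35 against 0.13), and the difference was -0.52 (SE 0.17, adjusted p = 0.345 in limma).

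Hist1h1e (H1f4), a linker histone found in most tissues, went from a mean of 3.94 ± 0.12 (SD, n = 4) to 3.66 ± 0.33. Ischemia 1, at 4.11, was above every control and the other 3 ischemia arrays, at 3.34 to 3.65, were below every control. Hist1h1c (H1f2), a linker histone also made outside S phase, had the highest difference of the members, 0.31 (SE 0.21, adjusted p = 0.654 in limma), but 0.09 without ischemia replicate 3. Its controls read -0.13, -0.07, -0.23 and -0.19, and its ischemia arrays 0.24, -0.15, 0.79 and -0.28. Ischemia 1 and 3 lay above the controls, 2 lay among them and 4 below, so the difference was within the spread of the ischemia group. Its probe starts at base 1342 of its target, past the 725 bases of the RefSeq gene. The testis linker histone Hist1h1t (H1f6) differed by 0.13 (SE 0.16), and by 0.03 without ischemia replicate 1, with overlapping groups.

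All 12 tested H2A genes had a lower mean, with a median of -0.30 (81.0% of control). Of them 8 had an unadjusted p under 0.05 in limma, against 7.65% of all genes on the lower side. Hist1h2ab (H2ac4; chr13:23843392-23843451) read 5.84, 5.61, 5.69 and 5.58 in controls and 5.44, 5.26, 5.13 and 5.31 after ischemia. This was the 1 H2A gene whose groups did not overlap, and it differed by -0.40 (SE 0.09, adjusted p = 0.233 in limma). Its probe shared at most 28 of 60 bases with any other member's probe. The files list 1 RefSeq gene for it, and its promoter is printed above.

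The H2A probes printed above gave like values. Hist1h2ak (H2ac15) read 7.99, 8.02, 8.0 and 7.81 in controls and 7.86, 7.60, 7.47 and 7.62 after ischemia. Ischemia 1 lay above control 4, and the other 3 ischemia arrays lay below every control. The same order held for Hist1h2af (8.05, 8.03, 8.04 and 7.84 against 7.91, 7.63, 7.47 and 7.62), Hist1h2an and Hist2h2aa2. Their differences were -0.32, -0.33, -0.31 and -0.30, each with an SE of 0.09 or 0.10. Hist1h2ah, Hist1h2ag and Hist2h2ac, also with shared probes, differed by -0.30, -0.31 and -0.30. These 7 values may be 7 readings of the same pool of H2A transcripts.

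The remaining H2A genes were more varied. Hist2h2ab (H2ac21) had the lowest difference of the class, -0.41 (SE 0.19), though with normexp background it was -0.24 and that of Hist1h2ab -0.38. It had ischemia 1 at -1.54 inside the control range of -1.97 to -1.51 and the others at -2.40 to -2.19. Hist2h2aa1, read across its stem-loop, differed by -0.17 (SE 0.09). The files place its probe just behind that of Hist2h2aa2 in mm9, and which of these near-identical copies was read is uncertain. The testis gene Hist1h2aa differed by -0.07 (SE 0.14), and by 0.05 without ischemia replicate 3. Hist3h2a (H2aw), whose probe lies past the annotated end, gave 3.89, 4.02, 4.0 and 3.97 in controls and 3.99, 3.86, 4.02 and 3.92 after ischemia. The groups lay on top of each other, with a difference of -0.02 (SE 0.06).

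In H2B the signs were mixed. Of its 7 tested genes 4 lay lower and 3 higher, and the median was -0.15. None (0) had an unadjusted p under 0.05 in limma, against 7.65% of all genes on the lower side. Without control replicate 3 that median was -0.04. Hist2h2bb (H2bc18), read across the stem-loop, had the lowest difference, -0.34 (SE 0.16, adjusted p = 0.501 in limma). It read 1.58, 1.49, 1.47 and 1.35 in controls and 1.65, 0.84, 1.08 and 0.98 after ischemia, so ischemia 1 was above all controls and the other 3 below them. Hist1h2bm (H2bc14), with a probe listed for 4 RefSeq genes, differed by -0.21 (SE 0.10). The testis gene Hist1h2ba (H2bc1) differed by -0.15 (SE 0.11), and by -0.04 without control replicate 3, with overlapping groups.

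The 3 H2B genes that lay higher all had probes in loci that RefSeq annotates as long or spliced. Hist1h2be (H2bc6) read -1.92, -1.86, -1.93 and -2.74 in controls and -1.78, -1.63, -1.71 and -2.19 after ischemia. Control 4 stood far below the other controls, and the difference of 0.28 (SE 0.21) was within this spread and 0.08 without control replicate 4. Hist2h2be differed by 0.15 (SE 0.19) and Hist1h2bc by 0.07 (SE 0.14). Hist3h2ba (H2bu2), read past its annotated end, had the brightest probe of the class, at 5.13 ± 0.40 in controls and 4.89 ± 0.10 (SD, n = 4) after ischemia, and its difference of -0.24 (SE 0.18) was smaller than the spread of the controls. Without control replicate 3 it was -0.06.

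All 7 tested H3 genes lay lower, with a median of -0.17. Of them 1 (14.3%) had an unadjusted p under 0.05 in limma, against 7.65% of all genes on the lower side. The median was -0.42 without ischemia replicate 1 and -0.09 without ischemia replicate 3, so single arrays moved it strongly. That gene was Hist2h3b (H3c13; chr3:96072881-96072940), a gene for the H3.2 protein whose probe is listed for 2 RefSeq genes and may read both, with 2.55, 2.45, 2.41 and 2.30 in controls and 2.30, 1.91, 1.61 and 1.88 after ischemia. Ischemia 1 equalled the lowest control to 2 decimals and the rest lay lower, a difference of -0.50 (SE 0.14, adjusted p = 0.286 in limma) or 70.6% of control. Hist1h3d (H3c4), with the brightest H3 probe, listed for 4 RefSeq genes, read 5.54 ± 0.06 in controls and 5.45 ± 0.07 (SD, n = 4) after ischemia. Hist1h3a and Hist1h3i, both read across the stem-loop, each differed by -0.17 with an SE of 0.28 and 0.31, and in both ischemia 1 was above every control. The remaining H3 genes, Hist1h3f, Hist1h3c and Hist2h3c2-ps (now H3c15), differed by -0.31 (SE 0.18), -0.16 (SE 0.08) and -0.03 (SE 0.14), with overlapping groups. The probe of Hist2h3c2-ps lies past the annotated end.

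H4 had the lowest class median, although differences between classes were not tested. All 9 tested genes lay lower, and the median was -0.37 (77.5% of control). At an unadjusted p under 0.05 in limma 7 lay lower, against 7.65% of all genes. In 4 the groups did not overlap, against 4.28% of all genes lower without overlap. Several of these probes are listed for several RefSeq genes, so these are not all separate measurements. Hist1h4j (H4c11; chr13:21826989-21827048) had the smallest p of all members. It read 2.32, 2.28, 2.51 and 2.20 in controls and 2.03, 1.93, 1.82 and 1.95 after ischemia, without overlap, a difference of -0.40 (SE 0.08, adjusted p = 0.223 in limma). Its probe matches 2 RefSeq genes, so it may read another H4 copy as well.

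Hist4h4 (H4f16; chr6:136752681-136752740) is the single member on chromosome 6, and its probe is not shared with another member. It read 4.36, 4.32, 4.47 and 4.40 in controls and 4.17, 3.89, 3.82 and 4.17 after ischemia, without overlap and with a difference of -0.38 (SE 0.10, adjusted p = 0.258 in limma). Sharing was scored against member probes and the accession list only. Whether this probe also reads H4 copies of the main clusters was not tested. Hist1h4k (H4c12), with the brightest H4 probe, read 6.91, 6.85, 6.98 and 6.79 in controls and 6.74, 6.42, 6.35 and 6.55 after ischemia, a difference of -0.37 (SE 0.09). Hist1h4d went from 5.79 ± 0.09 to 5.51 ± 0.12 (SD, n = 4), also without overlap. In both all ischemia arrays lay below all controls, and the probes are listed for 4 and 3 RefSeq genes. Brightness depends on the probe, so these levels are not amounts of one mRNA against another.

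Among the other H4 genes, Hist1h4m (H4c17), read across its stem-loop, had the lowest difference of all members, -0.55, but an SE of 0.28. It was -0.32 with normexp background, where Hist2h3b lay lower at -0.48, and -0.83 without ischemia replicate 1. Its controls read -1.63, -1.64, -1.57 and -1.97 and its ischemia arrays -1.41, -2.63, -2.78 and -2.20. Ischemia 1 was again above every control and the other 3 were below. Hist1h4c, with a probe listed for 3 RefSeq genes, differed by -0.40 (SE 0.13), Hist2h4 by -0.31 (SE 0.10) and Hist1h4i by -0.24 (SE 0.10). Hist1h4h was the least different, at -0.04 (SE 0.11).

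**Figure D2:**
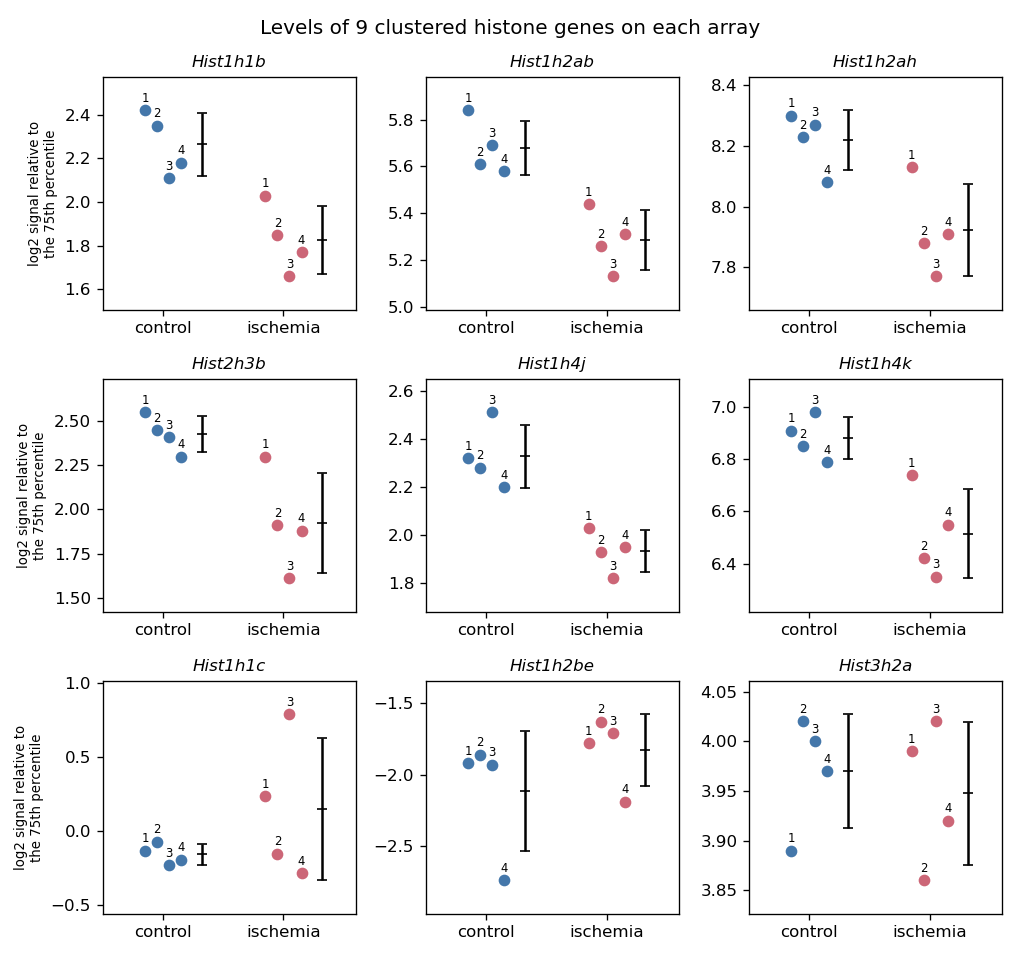
Log2 signal relative to the array's 75th percentile for 9 histone genes, 1 panel per gene with its own axis, with points for arrays numbered by replicate and, beside them, the mean with its SD (n = 4 per group). Hist1h1b, Hist1h2ab, Hist1h4j and Hist1h4k show groups that do not overlap, ischemia 1 of Hist1h2ah and Hist2h3b reaches the controls, and the bottom row shows genes whose probes lie past the annotated end or in a long or spliced locus.

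The arrays did not contribute equally. In 17 of the 40 genes ischemia 2, 3 and 4 lay below every control and ischemia 1 did not, a pattern held by 3.96% of all genes. Several of these 17 genes have shared probes, so they are not 17 separate measurements. In 0 members was the single exception any other ischemia array, but the share of all genes with such a pattern was not computed. Taking for each array the median deviation of the 40 genes from their control means, controls 1 to 4 stood at 0.06, 0.03, 0.05 and -0.12 and ischemia 1 to 4 at -0.03, -0.34, -0.44 and -0.29. Ischemia 1 was inside the control range and the other 3 were below it. Among the 8 arrays, ischemia 1 also had the lowest share of detected spots (47.6%) and the most outlier spots (189). Its array weight was the lowest, at 0.683, with ischemia 3 at 0.698. What set ischemia 1 apart was not tested. Control 4 was the lowest control in 27 of the 40 genes and ischemia 1 the highest ischemia array in 34. Without ischemia 1 the median difference of the members was -0.38, and 26 genes lay lower at an unadjusted p under 0.05 in limma, against 8.49% of all genes in that fit. H4 was the 1 class whose medians did not overlap between groups, with ischemia arrays at -0.14, -0.40, -0.51 and -0.27 and the lowest control at -0.10.

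The place of the probe went with the size of the difference. Of 27 genes read inside the stem-loop transcript, 26 lay lower, with a median of -0.31. At an unadjusted p under 0.05 in limma 17 lay lower, against 7.65% of all genes. All 7 genes without overlap between groups were among these 27 (25.9%, against 4.28% of all genes). The set holds Hist1h2ag, placed inside by its start in the target, but the files spread its 60 bases over a span of 59681 bases in mm9 and its probe holds a poly(A) signal, so its place is uncertain. The 5 genes read across the stem-loop all lay lower, with a median of -0.17 and 0 at an unadjusted p under 0.05 in limma. In these 5 genes ischemia 1 was always above the control mean and the other 3 ischemia arrays always below it. The 8 genes read past the annotated end or in a long or spliced locus split evenly, 4 lower and 4 higher, with a median of 0.02. Of these, 1 lay lower at an unadjusted p under 0.05 in limma, Hist1h4i. The difference between the 3 places was not tested, since place and class go together: 4 of the 7 tested H2B genes are in the last set. A poly(A) signal (AATAAA or ATTAAA) was in 4 member probes, those of Hist1h2ag, Hist1h2be, Hist1h4i and Hist3h2ba, against 13.7% of all probes.

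The lower signal was also present in probes that are not shared. Sharing was scored against member probes and accession lists, not against other histone transcripts. The brighter Hist1h4k probe, listed for 4 RefSeq genes, had at most 25 of 60 bases in common with another member's probe. Unshared probes may therefore also read several copies. The 16 genes with a shared probe all lay lower, with a median of -0.31 and 12 at an unadjusted p under 0.05 in limma. Among the 11 genes read inside the transcript by a probe that is not shared, 10 lay lower, also with a median of -0.31. Of these 11, 5 lay lower at an unadjusted p under 0.05 in limma, against 7.65% of all genes. In 4 the groups did not overlap (Hist1h1a, Hist1h1b, Hist1h2ab and Hist4h4), against 4.28% of all genes lower without overlap. The median was thus the same in shared and unshared probes inside the transcript. By cluster, 24 of 28 tested genes in cluster 1 lay lower, with a median of 82.3% of control. In cluster 2 it was 8 of 9, with 81.1%, and in cluster 3 it was 2 of 2, with 91.1%.

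Genes with several probes gave a check within a gene. In Hist1h4k both probes were without overlap and differed by -0.37 and -0.35 (SE 0.09 each). In Hist1h2ak a second probe at the start of the target, shared with no other member, differed by -0.37 (SE 0.13) beside -0.32 for the shared one. Hist1h4i had 3 probes at -0.24, -0.23 and -0.15, of which the second lies inside the transcript and the others past its end. The probes of these 3 genes lay the same way. Hist2h4 did not show this: its brighter probe differed by -0.31 and its dim one by 0.19 (SE 0.50), with ischemia 2 at -1.19 and every other array at -3.67 to -3.05. The dim probe was detected on 4 control and 2 ischemia arrays. Hist4h4 had a second probe past the annotated end that was detected on 0 arrays.

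Genes that act on the histone mRNAs were mostly higher. Of 19 genes of 3′ end processing and turnover of histone mRNA, all tested, 5 lay lower and 14 higher, with a median of 0.04. In limma 0 passed the adjusted threshold, with 0 lower and 2 higher at an unadjusted p under 0.05, against 7.65% and 3.25% of all genes. Slbp, the stem-loop binding protein, went from -1.04 ± 0.09 to -0.84 ± 0.13 (SD, n = 4), a difference of 0.20 (SE 0.08, adjusted p = 0.43 in limma), the opposite sign to most members. Upf1, a helicase used in histone mRNA decay, differed by 0.14 (SE 0.05), with every ischemia array (0.69 to 0.83) above every control (0.58 to 0.65). Casp8ap2 (FLASH), a scaffold of the histone locus body, differed by -0.05 and the U7 component Lsm11 by -0.01, with overlapping groups. The sign for Lsm11 turned under 6 of the alternative settings.

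Of 16 genes of histone gene transcription 14 were tested, 9 lower and 5 higher, with a median of -0.04. In limma 0 passed the adjusted threshold, with 3 lower (21.4%) and 1 higher at an unadjusted p under 0.05, against the same 7.65% and 3.25%. Npat and Ccne2 (cyclin E2) were not tested. Cdk2, the partner of cyclin E, differed by -0.38 (SE 0.13), with overlapping groups. Its signal was dim (means -3.09 in controls and -3.47 after ischemia), and the difference was -0.19 with normexp background. Nfyb, a subunit of the CCAAT-binding NF-Y complex, differed by 0.18 (SE 0.07) and Hinfp, an H4 transcription factor, by -0.03, a sign that turned without control replicate 2 or ischemia replicate 3.

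Histones made outside S phase had a median nearer to 0. Of 14 tested replication-independent histone genes 8 lay lower and 6 higher, with a median of -0.08. In limma 0 passed the adjusted threshold, with 2 lower (14.3%) and 0 higher at an unadjusted p under 0.05, against the same 7.65% and 3.25%. H2afz (H2A.Z) differed by -0.07, H2afx (H2A.X) by -0.08, H3f3b (H3.3) by 0.02 and H1f0 by -0.12, each with overlapping groups. The signs of H3f3b and H1f0 turned under other settings. The 2 with an unadjusted p under 0.05 in limma were H2afj, an H2A variant, at -0.31 (SE 0.11, adjusted p = 0.368 in limma), and H1foo, the oocyte linker histone, at -0.28 (SE 0.12). With the mean of its 2 kept probes H2afj differed by -0.21. Whether its probe also reads clustered H2A copies was not tested.

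Histone chaperones, which carry new histones to DNA, had a median of -0.01 over 30 tested genes, with 16 lower and 14 higher. In limma 0 passed the adjusted threshold, with 2 lower (6.67%) and 1 higher at an unadjusted p under 0.05, against 7.65% and 3.25% of all genes, so the shares were near the background. Asf1b, the proliferation-linked copy of the H3-H4 chaperone Asf1, differed by -0.43 (SE 0.10, adjusted p = 0.233 in limma), with controls at -0.69 to -0.50 and ischemia arrays at -1.31 to -0.90. Nasp, which holds the soluble H3 and H4 store, differed by -0.04, and Chaf1a of the CAF-1 complex by -0.05.

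Cell cycle genes lay lower as well. Of 31 tested S phase genes 27 lay lower, with a median of -0.14, 9 at an unadjusted p under 0.05 in limma on the lower side and 1 on the higher side, which is Slbp. Over all genes 57% lay lower, 7.65% and 3.25% had such a p on the lower and higher side, and 4.28% lay lower without overlap, which 3 of the 31 did. Tk1, the thymidine kinase of dividing cells, went from 0.51 ± 0.12 to -0.11 ± 0.15 (SD, n = 4), a difference of -0.62 (SE 0.09, adjusted p = 0.151 in limma), without overlap. Uhrf1, which keeps DNA methylation through replication, differed by -0.38 (SE 0.09), also without overlap. Mcm2, a helicase subunit that is also on the chaperone list, differed by -0.23 (SE 0.08), and the sliding clamp Pcna by -0.07 (SE 0.06). All 14 tested genes of the mitosis list lay lower, with a median of -0.27 and 8 (57.1%) at an unadjusted p under 0.05 in limma, against 57% and 7.65% of all genes. Of the 14, 4 lay lower without overlap. Ccnb2 (cyclin B2) differed by -0.50 (SE 0.10), the checkpoint kinase Bub1 by -0.46 (SE 0.10) and the proliferation antigen Mki67 by -0.26 (SE 0.09). With normexp background Ccnb2 differed by -0.41 and Bub1, with the dimmer probe, by -0.27. None of the S phase or mitosis genes passed the adjusted threshold in limma.

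The per-array order of these lists was not that of the histones. The median deviations of the S phase list were -0.17, -0.16, -0.18 and -0.07 in ischemia 1 to 4, and those of mitosis -0.28, -0.12, -0.53 and -0.27. Ischemia 1, at -0.03 for the histones, was thus as low as the other ischemia arrays for S phase. The medians of both lists overlapped between groups, since control 3 stood at -0.13 and -0.16. The part of fewer dividing cells in the histone difference was not tested.

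**Figure D3:**
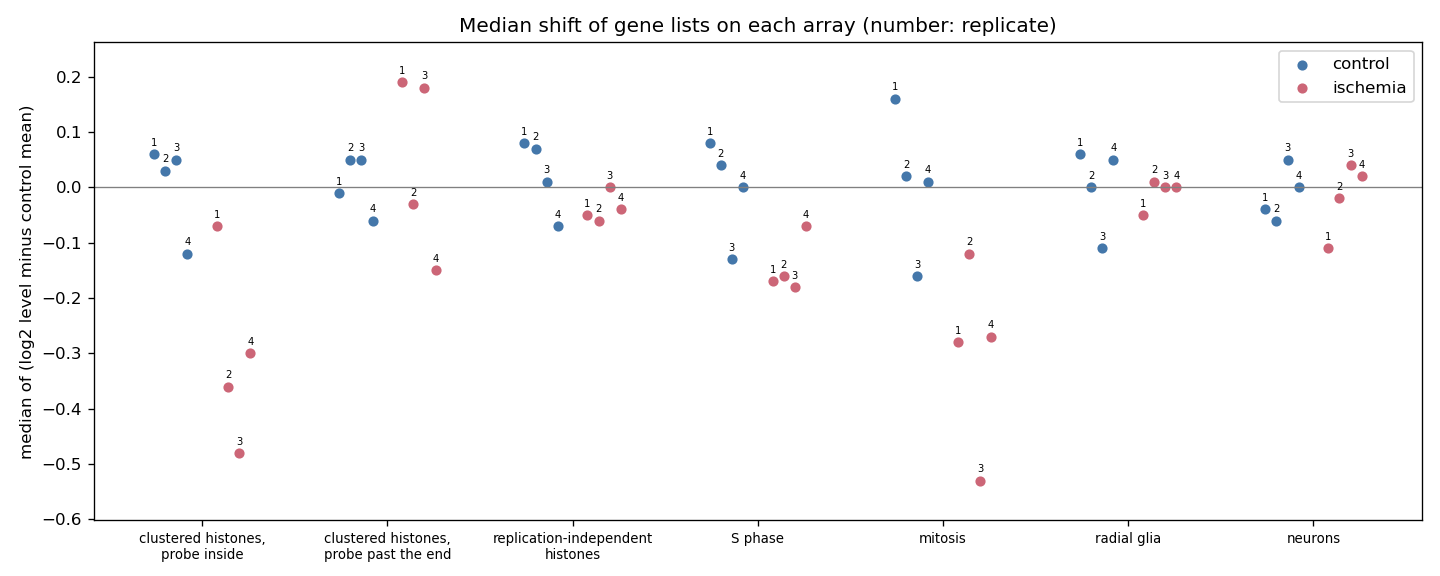
Median over each gene list of the log2 level minus its control mean, 1 point per array numbered by replicate, for histone genes read inside the transcript, histone genes read past its end or in a long or spliced locus, 3 lists of histone and cell cycle genes and 2 of cell types. Ischemia 2, 3 and 4 lie at -0.36, -0.48 and -0.30 for the first list and ischemia 1 at -0.07, while radial glia and neurons stay between -0.11 and 0.06.

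Markers of the cells of the cortex were present, as the tissue label says. All 12 neuron markers were tested, with a median of -0.02. All 10 radial glia markers were tested, with a median of -0.04. Their summed linear level (in units of the array's 75th percentile) was 232.5 to 250.5 after ischemia and 258.7 to 271.9 in controls, without overlap. Most of that sum is Fabp7, by far the brightest of them (mean 7.51 in controls and 7.30 after ischemia). Hes5, the next brightest, read 5.20 and 5.30. The 8 intermediate progenitor markers had a median of 0.02 and the 8 oligodendrocyte precursor markers of 0.07. None of the genes on the cell type lists passed the adjusted threshold in limma. At an unadjusted p under 0.05 in limma, 2 radial glia markers lay lower (20%), against 7.65% of all genes. They were Nes (-0.23) and Fabp7 (-0.22), both without overlap, against 4.28% of all genes. In the whole radial glia list 6 lay lower and 4 higher. Of the neuron, intermediate progenitor and oligodendrocyte precursor markers 0 lay lower or higher at such a p.

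Lists of other cell types differed too. The 10 meninges markers had a median of 0.34, and their summed level was 3.42 to 4.8 in controls and 3.74 to 16.48 after ischemia. Ptgds reached 3.48 on the log2 scale after ischemia, the highest value of any meninges marker. Ischemia 1, the array whose histones were nearest to control, had a median deviation of 1.29 for meninges and the other ischemia arrays -0.10 to 0.32. Of 9 choroid plexus markers 6 were tested, with Kl, Clic6 and Kcne2 not tested. Their summed level was 3.2 to 3.58 in controls and 3.25 to 117.6 after ischemia, the highest in ischemia 4. Ttr reached 6.76 on the log2 scale after ischemia, the highest value of any of them. Such sums follow the brightest markers. The 7 tested erythroid markers all lay lower, with a median of -0.48 and summed levels of 229.8 to 416.8 in controls and 172.6 to 298.3 after ischemia. The erythroid median deviations in ischemia 1 to 4 were -0.28, -0.01, -0.52 and -0.90, against -0.48 to 0.36 in controls. The 9 microglia markers had a median of 0.14, with 4 lower and 5 higher, and every ischemia array (0.05 to 0.22) was near or above the controls (-0.05 to 0.06). Of these markers 3 lay higher and 1 lower at an unadjusted p under 0.05 in limma, and 3 lay higher without overlap, against 3.25%, 7.65% and 2.27% of all genes. C1qa, a chain of the complement starter C1q, differed by 0.42 (SE 0.10, adjusted p = 0.248 in limma). The lower one, P2ry12, differed by -0.30 (SE 0.10), with overlapping groups. The 8 astrocyte markers had a median of 0.08, with 2 higher at an unadjusted p under 0.05 in limma, and the 8 endothelial markers of 0.04, with 1 lower and 1 higher. The lower endothelial marker was Kdr, at -0.31 (SE 0.07), with controls at 4.19 to 4.48 and ischemia arrays at 3.98 to 4.08. The higher one was Slco1a4, a transporter of the blood-brain barrier, at 1.09 (SE 0.21, adjusted p = 0.221 in limma). Its controls read only -4.58 to -3.84 and its ischemia arrays -3.32 to -2.58. Hist1h3g was detected on 0 control arrays at -4.65 to -3.86. The detection filter may thus have kept Slco1a4 through its ischemia arrays alone. C1qa, P2ry12, Kdr and Slco1a4 were singled out after their values were seen. At the same unadjusted p, 3 meninges markers lay higher, 3 erythroid markers lower and 0 choroid plexus markers either way. The part of these cell types in the histone difference was not tested.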

How the data were processed

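Total RNA (50 ng per array) was labelled with Cy3 and hybridised to 8 one-colour Agilent arrays, 4 control and 4 ischemia. The authors' deposited scanner files hold intensity per spot, already background-subtracted as processed signal by Agilent Feature Extraction 10.7.3.1, per the submitters' processing notes. The authors' deposited value table holds a ratio, the processed signal over 1 constant per array (to within 0.00989%), with medians of 0.0836 to 0.1003. The sources used here do not say how that constant was chosen.

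Outlier spots were left out and spots of a probe averaged (59305 non-control spots, 55681 probes). Values are log2 processed signal minus log2 of the array's 75th percentile. Probes detected on at least 4 of 8 arrays were kept, and the brightest kept probe stood for a gene. limma 3.58.1 in R 4.3.3 (lmFit, eBayes, two-sided) compared the groups. P-values were adjusted by Benjamini and Hochberg's method across the 19751 genes, and genes under 0.05 were called. The fit was tested on simulated data. Of the 55 member probes, 52 were given current names through their accession and 3 through an older symbol, using the RefSeq table for GRCm38.p6. Probe coordinates are those of the files (mm9). The members, gene lists and markers were chosen with earlier results of these data known, so their counts are descriptions. No set test was run. Precision is limited by the number of arrays. Named genes were those with the 12 smallest p among members, the extremes and the highest mean of each class, members without overlap or with several probes, the testis members, the 2 smallest p of each related list and 15 listed genes; other members were named to account for the whole set. Alternatives changed background correction, scaling, the filter, the probe rule, the variance model, array weights, the replicate block, the values used, and left out each array.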

Additional observations from a re-analysis of the deposited data

Results flagged for a closer look

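Within groups of 4 arrays, 9 of the 98 sets of values checked had 1 array standing apart, where chance alone gives about 4.9. The measure is the gap from the extreme array to its neighbour over the range of the group, set against Dixon's critical value for 4 values. Control 4 stood low for Hist1h2ak (ratio 0.866), Hist1h2an (0.831) and Hist1h2af (0.882), which have probes alike, and for Hist1h2be (0.925) and H1foo, now named H1f8 (0.888). Ischemia 1 stood high for Hist1h2ba (0.85; 2.54 against 2.36 to 2.39). Control 2 stood low for Slbp (0.843), ischemia 3 low for Ccnb2 (0.886) and control 3 low for Bub1 (0.889). What set these arrays apart was not tested.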

How the results depend on the processing

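The count of histone genes called was 0 in each of the 19 alternatives in limma, and the number lower at an unadjusted p under 0.05 ran from 17 to 26. The share of everything tested that lay lower at such a p in limma moved too, from 4.53% (no filter) to 8.95% (array weights). The median difference of the members stayed between -0.38 (without ischemia replicate 1) and -0.23 (quantile normalization). Over all genes, the 1 call became 0 with normexp background, quantile normalization, detection on all 8 arrays, no filter, every kept probe tested and the replicate block, 20 with trend and robust variances, and 0 to 1 with single arrays left out. Under the replicate block 1 histone gene lay higher at an unadjusted p under 0.05 and 20 lower in limma. Of all genes 8.54% lay lower at such a p in that fit, and the share higher was not computed. The labels do not say that a number pairs pups, so the main fit had no block. Same-numbered arrays correlated at 0.08, -0.06, 0.29 and 0.39 in their deviations from the group means. Controls 3 and 4 correlated best with the ischemia array of the same number. Control 1 correlated best with ischemia 2 (0.16) and control 2 with ischemia 1 (0.18). These values do not settle whether the numbers pair pups. Differences near 0 turned sign: Hist1h2aa 0.05 (without ischemia replicate 3; -0.17 to 0.05 with single arrays left out), Chaf1a 0.00 (normexp), H1f0 0.04 (without control replicate 1; -0.31 to 0.04), Hinfp 0.02 and 0.01 (without control replicate 2 or ischemia replicate 3; -0.09 to 0.02), H3f3b -0.00, -0.01 and -0.04 (mean of probes, array weights, without ischemia replicate 3; -0.04 to 0.06), and Lsm11 0.00 (median scaling), 0.01 (array weights) and 0.02, 0.08, 0.07 and 0.04 (without control replicate 1 or 4 or ischemia replicate 1 or 4; -0.08 to 0.08). The cause was not tested. Of 1071 alternative values, 1040 kept their direction and their side of the threshold, or moved by less than the spread. Precision was lowest for Hist1h3a, Hist1h3i, Hist1h4m and the second Hist2h4 probe, whose standard errors were 0.28 or more.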
